A study of Rattus norvegicus with 10 samples.

Results

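The genes described here write, erase and read DNA methylation, and they were chosen by name from the authors' deposited gene table. Of 9 genes listed, 7 had a row under that name, out of 12828 genes in all. They were the writers *Dnmt1* and *Dnmt3a*, the erasers *Tet2* and *Tet3*, and the readers *Mbd1*, *Mbd2* and *Uhrf2*. The other 2, *Dnmt3b* and *Tet1*, were not analysed here. RNA-sequencing was performed on the arcuate nucleus (ARC) of 10 Wistar rat dams killed at parturition. Through pregnancy, 5 dams ate a 5X-FA diet, with folic acid at 5 times the recommended amount, and 5 ate a 5X-MTHF diet, with an equimolar amount of the reduced folate [6*S*]-5-methyltetrahydrofolic acid. All dams were pregnant for the first time and both groups had high folate, and dams on a recommended dose were not analysed here. The ARC, a nucleus beside the third ventricle that senses nutrients and hormones, was cut free hand from a frozen coronal slice.

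The values per library in the table stand under column names that match no label of a dam, and they were not used here. The 2 diets were therefore not compared, no difference between them is given, and no spread between dams was obtained. What follows rests on 1 value per gene, the average log2 CPM (read counts scaled to a common library size, written here as CPM) that the authors calculated over all libraries of both diets. Below, all genes means the genes with a row in the table, and not every gene of the rat. The paper states that genes with few reads were filtered out before its comparison. Which filter made this table is not given in the sources used here. Percentiles and counts above the median are therefore ranks among genes kept in the table. CPM is a share of reads. It is not corrected for transcript length, so that a long transcript takes more reads than a short one at the same number of molecules, and the values below are not an order of transcript abundance.

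In mammals, DNA methylation is placed mainly on the cytosine of CpG dinucleotides. Writers transfer the methyl group from S-adenosylmethionine (SAM), the donor that folate and methionine metabolism replenish, and TET erasers oxidise the methyl group in steps that use oxygen, iron and 2-oxoglutarate. Readers bind the methylated or oxidised base and bring in other proteins, many of which silence transcription. In the brain these genes are expressed in cells that no longer divide, and methylation there is known to be laid down and removed as neurons mature and respond to activity.

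Promoters are shown first, because the CpG dinucleotide is the substrate of these enzymes and the annotated start windows of these genes differed widely in CpG count. Which starts were used in these libraries was not measured. Each window runs from 250 bases before to 50 bases after an annotated transcription start and comes from RefSeq on build GRCr8, with all 7 genes matched by symbol. The windows below were chosen to show a CpG-rich case, an intermediate case and a pair of starts of 1 gene that differ, and capitals mark each CpG.

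Dnmt1 (GRCr8 chr8:27762792-27763091, minus strand): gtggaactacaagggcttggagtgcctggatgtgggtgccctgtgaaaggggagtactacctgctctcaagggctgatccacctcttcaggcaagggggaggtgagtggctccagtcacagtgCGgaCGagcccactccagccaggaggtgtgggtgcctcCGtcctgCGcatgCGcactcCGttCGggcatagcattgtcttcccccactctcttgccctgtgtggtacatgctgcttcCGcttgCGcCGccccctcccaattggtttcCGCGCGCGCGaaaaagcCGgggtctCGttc

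Tet2 (GRCr8 chr2:224746137-224746436, minus strand): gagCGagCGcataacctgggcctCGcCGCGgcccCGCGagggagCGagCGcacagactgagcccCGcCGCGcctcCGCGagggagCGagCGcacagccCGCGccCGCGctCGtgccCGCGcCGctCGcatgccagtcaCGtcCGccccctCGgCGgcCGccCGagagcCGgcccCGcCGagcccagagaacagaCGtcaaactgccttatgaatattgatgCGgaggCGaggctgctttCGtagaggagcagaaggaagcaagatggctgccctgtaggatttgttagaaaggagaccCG

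Tet3, first start (GRCr8 chr4:117525446-117525745, minus strand): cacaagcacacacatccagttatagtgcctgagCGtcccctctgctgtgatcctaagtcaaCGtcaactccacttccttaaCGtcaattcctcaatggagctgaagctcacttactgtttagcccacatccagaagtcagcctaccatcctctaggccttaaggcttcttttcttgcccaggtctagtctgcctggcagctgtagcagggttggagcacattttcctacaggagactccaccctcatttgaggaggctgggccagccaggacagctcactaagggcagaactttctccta

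Tet3, second start (GRCr8 chr4:117520996-117521295, minus strand): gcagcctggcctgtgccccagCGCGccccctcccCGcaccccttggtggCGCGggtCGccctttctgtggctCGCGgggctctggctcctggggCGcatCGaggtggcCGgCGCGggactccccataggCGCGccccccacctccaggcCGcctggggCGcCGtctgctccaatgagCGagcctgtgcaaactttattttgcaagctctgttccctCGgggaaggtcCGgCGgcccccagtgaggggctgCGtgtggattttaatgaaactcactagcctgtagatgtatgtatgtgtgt

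*Tet2* had 39 CpG in its 300 bases, or 1 every 7.69 bases. That count was above that of 96.2% of the 31394 rat promoter windows in the reference, whose median was 7. Windows of genes in the table had a median of 21, and the rank of *Tet2* among them was not calculated. For *Tet2* the observed-to-expected CpG ratio, which divides the CpG count by that expected from the C and G content, was 1.09. Of the 39, 38 lay before the start site and 1 after it. In *Dnmt1*, 10 of the 17 CpG, placed by their C, lay before the start and 7 at or after it, where 5 of them follow each other without a break. The first start of *Tet3* had 3 CpG, a ratio of 0.16, and the second start, 4450 bases further along the gene, had 23 and a ratio of 0.69.

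Among the writers, *Dnmt1* encodes the maintenance methyltransferase, which copies methylation onto the new strand after replication. It lies on chromosome 8 of Rnor_6.0 from 21922515 to 21968495 (ENSRNOG00000039859). Its average was 5.47 log2 CPM, or 44.3 CPM, and 61.1% of all genes in the table had a smaller read share. Its partner at the replication fork, *Pcna*, the sliding clamp of DNA polymerase, had 5.18 log2 CPM. *Dnmt3a* encodes a de novo methyltransferase, which also methylates cytosines outside CpG in neurons. It lies on chromosome 6 from 28235695 to 28340577 (ENSRNOG00000026649) and had 5.28 log2 CPM, or 38.9 CPM, with 57.0% of genes below it. The nearest gene of the table at its higher coordinates was *Pomc*, the precursor of the satiety peptide α-MSH of ARC neurons, 42384 bases away, with 4.67 log2 CPM.

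Among the erasers, *Tet2* encodes a dioxygenase that turns 5-methylcytosine into 5-hydroxymethylcytosine. It lies on chromosome 2 from 238720835 to 238803024 (ENSRNOG00000023579) and had 5.54 log2 CPM, or 46.5 CPM, with 62.5% of genes below it. *Tet2* has no CXXC domain of its own. Its nearest neighbour at higher coordinates in the table was *Cxxc4*, which encodes a CXXC protein that binds unmethylated CpG. The 2 genes lay 612021 bases apart, and *Cxxc4* had 6.25 log2 CPM. *Tet3*, which does the same chemistry, lies on chromosome 4 from 115066309 to 115157263 (ENSRNOG00000011387). It had 4.08 log2 CPM, or 16.9 CPM, the smallest read share of the 7 genes, with 32.7% of all genes below it. It was the only one of the 7 below the median of the table, 4.94 log2 CPM.

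Among the readers, *Uhrf2* encodes a ubiquitin ligase that binds hydroxymethylated and hemimethylated DNA. It lies on chromosome 1 from 248228496 to 248291978 (ENSRNOG00000011308). Its average was 6.56 log2 CPM, or 94.6 CPM, the largest read share of the 7, with 81.3% of all genes below it. *Mbd1* and *Mbd2* encode methyl-CpG binding domain proteins, the first a repressor that works with the histone methyltransferase *Setdb1*, the second a subunit of the NuRD remodelling and deacetylase complex. *Mbd1* had 5.44 log2 CPM, or 43.4 CPM. *Mbd2* had 5.31 log2 CPM, or 39.7 CPM. Both lie on chromosome 18, *Mbd2* from 65814026 to 65885114 (ENSRNOG00000011853) and *Mbd1* from 70248713 to 70263164 (ENSRNOG00000024104), with 4.36 Mb between them. *Mbd1* is followed after 194 bases by *Cfap53*, and at its lower coordinates its nearest gene in the table was *Cxxc1*, 50845 bases away. *Cxxc1* encodes a protein that binds unmethylated CpG and had 5.06 log2 CPM. No row of the table overlapped any of the 7 genes.

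Together, 6 of the 7 genes were above the median of all genes in the table and 1 was below it. The median of the 7 was 5.44 log2 CPM. The 7 made up 324 CPM, of which the 3 readers took 178, the 2 writers 83.2 and the 2 erasers 63.4. All but *Uhrf2* lay within the interquartile range of all genes, from 3.65 to 6.18 log2 CPM. Because the averages carry no error, neighbours in this order, such as *Dnmt1* and *Mbd1*, cannot be said to differ.

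**Figure D1:**
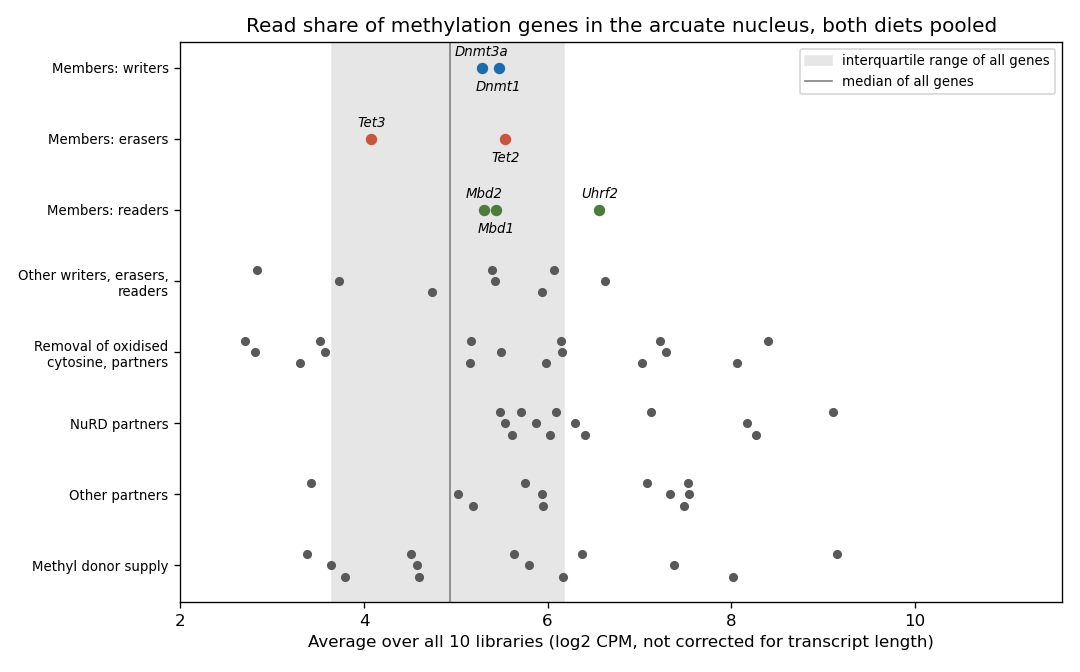
Average log2 CPM over all 10 libraries (horizontal axis, not corrected for transcript length) of the 7 genes by role and of the lists of partner genes (rows; points are genes, spread vertically only for legibility). The grey band is the interquartile range of all 12828 genes and the line their median of 4.94; *Tet3* lies left of the line at 4.08 and *Uhrf2* right of the band at 6.56.

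Other genes grouped with the writers, erasers and readers were followed as a list of 11, and not all of these act on methylated DNA. Of the 11, 8 were analysed here. Their median was 5.41 log2 CPM, against 4.94 for all genes, and 5 of the 8 were above the latter. *Mbd3*, a NuRD subunit that binds methylated CpG poorly, had 5.94, *Mbd5* 6.07 and *Mbd6* 5.39 log2 CPM. *Mbd4*, a glycosylase that removes thymine and uracil from mismatches at CpG, had 2.84 log2 CPM, or 7.14 CPM. The zinc finger readers *Zbtb4* and *Zbtb38* had 6.62 and 5.43 log2 CPM. *Trdmt1*, whose enzyme methylates transfer RNA, had 3.73 log2 CPM.

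Erasure is completed by base excision repair, and 16 of 18 genes of oxidised cytosine removal and of demethylation partners were analysed, with a median of 5.73 log2 CPM. The largest read shares were those of *Ogt*, the O-GlcNAc transferase that binds TET proteins, at 8.40 log2 CPM, of *Idh3a*, a subunit of the mitochondrial isocitrate dehydrogenase that makes 2-oxoglutarate, at 8.06, and of *Slc23a2*, a vitamin C transporter, at 7.29. The smallest were those of *Gadd45g* (2.71 log2 CPM) and *Gadd45b* (2.81), stress-induced genes linked to demethylation, and of the glycosylase *Neil1* (3.30). *Tdg*, the glycosylase that excises the last oxidised forms, had 5.16 log2 CPM.

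Readers recruit larger complexes, of which NuRD is one. All 13 NuRD genes listed were analysed, and 13 of 13 were above the median of all genes, with a median of 6.09 log2 CPM. The remodelling ATPases *Chd3*, *Chd4* and *Chd5* had the largest read shares, 9.10, 8.27 and 8.18 log2 CPM, and the scaffold *Gatad2b*, the deacetylase *Hdac1* and the scaffold *Gatad2a* had the smallest, 5.48, 5.54 and 5.61. Of 14 other partners, 11 were analysed, with a median of 5.95 log2 CPM. In this list the corepressor *Ncor1* had 7.54 log2 CPM, and *Usp7*, the deubiquitinase that binds DNMT1, had 7.49. At the other end, *Rest*, the repressor of neuronal genes, had 3.43 log2 CPM and *Ehmt1*, a histone H3 lysine methyltransferase, had 5.02.

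The supply of methyl groups was followed over 16 genes, of which 13 were analysed, 7 of them above the median of all genes. *Mat2a*, the enzyme that makes SAM, had 8.02 log2 CPM. *Ahcy*, the gene of the enzyme that clears the product S-adenosylhomocysteine, had 5.79 log2 CPM, and its relatives *Ahcyl1* and *Ahcyl2* had 9.15 and 7.38. The smallest read share was that of *Tyms*, the thymidylate synthase, at 3.38 log2 CPM. *Mtr*, the methionine synthase that uses 5-methyltetrahydrofolate, had 4.51 log2 CPM.

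Markers of the ARC and of other brain regions and cell types were both found. Of 13 ARC genes, 11 were analysed, and 3 of the 11 were above the median of all genes. The 3 were *Cartpt*, *Slc6a3* (5.48 log2 CPM) and *Th* (5.20), and how particular they are to the ARC was not tested. The 11 ran from *Kiss1* at 0.08 log2 CPM to *Cartpt* at 6.02, with *Pomc* at 4.67 and *Agrp*, the hunger peptide of the ARC, at 1.42. The median of the ARC markers was 4.34 log2 CPM. It was 4.86 for striatal, 5.04 for thalamic and 2.87 for cortical and hippocampal markers. The 6 striatal markers ran from 2.63 (*Gpr6*) to 7.07 log2 CPM (*Ppp1r1b*), with 3 of them above the median of all genes. Of the 4 markers of cortex and hippocampus analysed, *Slc17a7* was at 7.17 log2 CPM and the others between 2.13 (*Neurod2*) and 3.34 (*Tbr1*). The 4 thalamic markers ran from 1.20 (*Tnnt1*) to 8.09 log2 CPM (*Slc17a6*, also a gene of hypothalamic glutamate neurons). Oligodendrocyte markers lay between 5.62 and 12.59 log2 CPM, astrocyte markers between 5.51 and 10.22, and neuron markers between 6.14 and 10.44, with genes of inhibitory neurons between 7.40 and 9.67. Microglial markers lay between 4.08 and 6.82 log2 CPM and endothelial markers between 4.30 and 6.28. Of the tanycyte markers, *Rax* was at 0.08, *Gpr50* at 1.78 and *Vim*, which astrocytes and endothelium also express, at 7.32 log2 CPM. Of 4 genes of dividing cells, 0 were analysed here. The methylation genes are expressed in many cell types, and in bulk tissue the number of cells of a type and the RNA per cell cannot be told apart. How much each cell type contributed to their read shares was not tested.

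Over all 7 genes there were 9 distinct start windows, 1 for each of 6 genes and 3 for *Tet3*. CpG counts ran from 3 to 39, with a median of 23. The median was 7 over all 31394 windows and 21 over the 10366 windows of genes with a row in the table, and the 7 genes lay close to the latter. *Mbd2*, with 39 CpG and a GC content of 75.3%, equalled *Tet2*. *Uhrf2* had 28, *Mbd1* 25 and *Dnmt3a* 21, and the third start of *Tet3*, 18493 bases from its first, had 15.

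**Figure D2:**
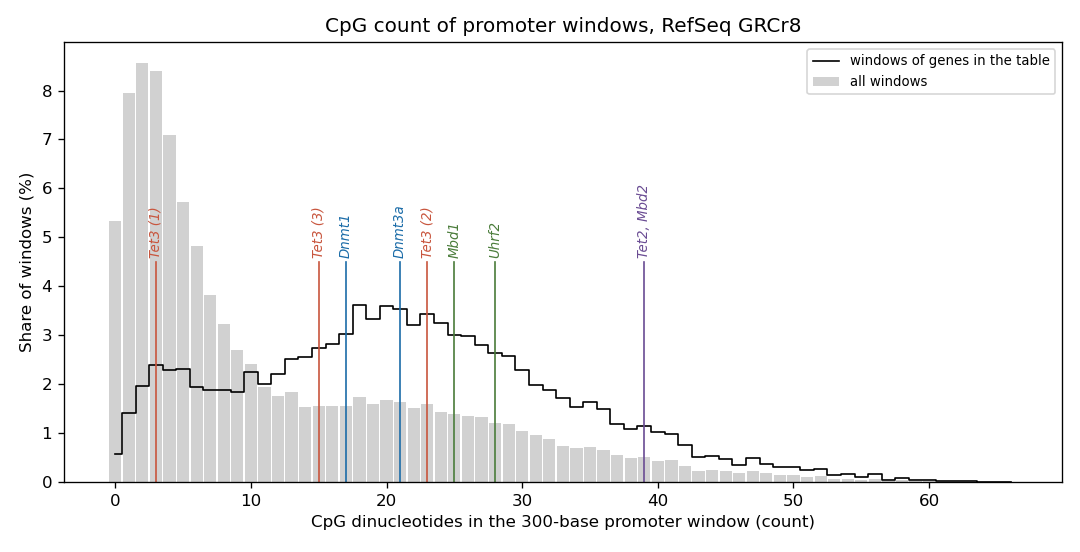
Number of CpG dinucleotides in a 300-base promoter window (horizontal axis) against the share of windows with that number (vertical axis, percent), for all 31394 windows (grey bars) and for the 10366 windows of genes in the table (black line). Coloured lines mark the 9 windows of the 7 genes, with the start of *Tet3* in parentheses; the first *Tet3* start has 3 CpG and *Tet2* and *Mbd2* have 39.

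By the limits commonly used for CpG islands, a GC content of at least 50% and an observed-to-expected ratio of at least 0.6, 5 of the 9 windows were CpG-rich. They belonged to *Tet2*, *Mbd2* (ratio 0.96), *Uhrf2* (0.89), *Mbd1* (0.85) and the second start of *Tet3* (0.69). Both writers were below the limit on the ratio, *Dnmt1* at 0.58 and *Dnmt3a* at 0.53, the latter with a GC content of 74.3%. With only the 250 bases before the start, the ratio was 0.38 for *Dnmt1* and 0.54 for *Dnmt3a*. For *Dnmt1* that part leaves out the 7 CpG at or after the start. Sequence beyond 50 bases after the start was not examined. Whether either writer has a CpG island that reaches past its window was therefore not tested. The share of 55.6% compares with 67.9% of windows of genes in the table and 32.0% of all windows. These shares count windows, and *Tet3* alone gave 3 of the 9. By gene, 5 of the 7 had a CpG-rich window. The share of genes in the table with such a window was not calculated. Among the partner lists, CpG-rich windows made up 14 of 15 for oxidised cytosine removal and demethylation partners, and 12 of 12 for other partners. They made up 10 of 13 for NuRD and 8 of 13 for methyl donor supply. For the other writers, erasers and readers it was 6 of 12.

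CpG positions differed between the genes. As 250 of the 300 bases of each window lie before the start, an even spread would also put most CpG there. In *Tet2* all but 1 of the CpG lay before the start, and in *Mbd1* 24 of 25 did. *Mbd2* had 6 of 39 at or after the start and *Uhrf2* 4 of 28. *Dnmt1* stood at the other end, with 7 of 17. These are features of the reference sequence, and the methylation of these CpG was not measured.

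**Figure D3:**
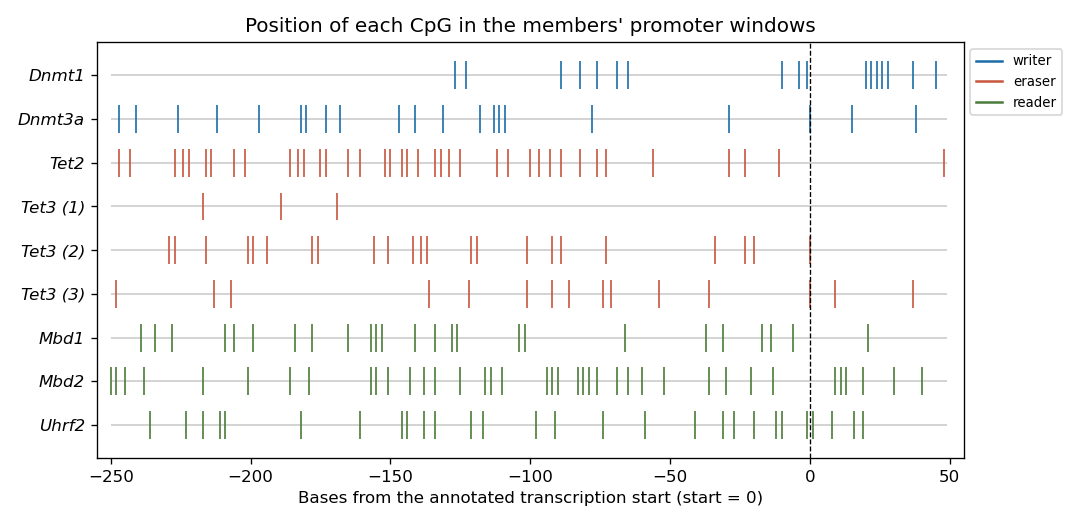
Position of each CpG (vertical ticks) in the 9 promoter windows, in bases from the annotated start (dashed line, 0), with writers in blue, erasers in red and readers in green. *Dnmt1* has 7 of its 17 CpG at or after the start, *Tet2* has 1 of 39, and the first *Tet3* start has 3 CpG in all.

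Short motifs were searched on both strands, as exact letters. The GC box GGGCGG was found in 6 of the 9 windows, against 61.8% of windows of genes in the table and 33.6% of all windows, with 4 matches in *Mbd2* and 3 each in *Uhrf2* and the third start of *Tet3*. Since its letters hold a CpG, it is more likely in CpG-rich windows. The CCAAT box, CCAAT, was found in 3 of 9 windows (*Dnmt1*, *Mbd1* and the second start of *Tet3*), against 37.0% for genes in the table. The TATA box, TATAAA, was found in 0 of 9, against 6.72%. The E2F-type site TTTCGCGC, a motif of cell cycle genes, was found in 1 of 9, the *Dnmt1* window, 25 bases after the start on the opposite strand and overlapping the run of 5 CpG. It occurred in 0.531% of windows of genes in the table and 0.334% of all windows. A match is a description of the letters, and binding was not measured.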

How the data were processed

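RNA from the ARC of 10 dams, 5 per diet, was poly-A selected and sequenced in pairs. Per the labels and the methods, reads were trimmed (Trim Galore 0.5.0), aligned to Rnor_6.0 (STAR 2.6.0c) and counted per Ensembl gene (HTSeq 0.6.1p2). The average log2 CPM was used as the authors deposited it. The step that made it is not given in the sources used here. As powers of 2, its values summed to 1002150 over the table. That is close to the fixed total of CPM over all counted genes of 1 library. Averages of log values over the genes of a table need not reach that total, so the sum is only a rough check. The authors' columns for their own comparison (fold change, F statistic, *p*-value, FDR) were not used, nor were 10 per-library columns that match no label. The planned limma comparison of the diets was therefore not run, and depth per library was not obtained.

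Genes were matched by symbol. The percentage of genes with a smaller value was computed over all 12828 genes. Genes and lists were chosen with earlier results of these data known. All 7 members are named, all analysed genes of the list of other writers, erasers and readers, and of each other list the 3 largest and 3 smallest, except some genes of these lists that count in the list totals but are not reported here by name. *Pomc*, *Cxxc1*, *Cxxc4*, *Cfap53*, *Tdg*, *Mtr*, *Ahcy* and the markers given were named after their values were seen. Promoter windows (RefSeq, GRCr8) starting within 10 bases of another of the same gene were merged. Calculations were tested on artificial data. The scripts ran in Python 3.11.15 (pandas 2.3.3, numpy 2.4.6, matplotlib 3.10.9, scipy 1.17.1).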

Additional observations from a re-analysis of the deposited data

How the results depend on the processing

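Dams were allocated to the diets at random, and the replicate numbers shared by both diets are not stated to mark blocks. No paired analysis was possible because the paper describes no pairs of dams, and the columns per library carry no label of a dam. The diet comparison and its alternatives (another pseudocount, no filter, each replicate left out, the replicate block, another count model) were therefore not run. A level per transcript length was not run, as no transcript lengths were at hand. Ranked against the 12383 protein-coding genes, the median percentile of the 7 genes was 59.3, and against the 12462 genes at or above 1 log2 CPM it was 59.2, where it was 60.3 against all genes. Genes under 1 log2 CPM all lay below the 7 genes, of which *Tet3* had the least at 4.08. Leaving them out therefore lowers every percentile by calculation alone. For protein-coding genes, the cause of the shift was not tested. With only the 250 bases before the start, the median observed-to-expected CpG ratio of the 9 windows was 0.67, where it was 0.69 over the whole window, and 5 windows were CpG-rich as before. The ratio of *Dnmt1* fell from 0.58 to 0.38. Library depths could not be obtained from these averages, and so the error of every average is unknown.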
